A study of Mus musculus with 9 samples.

Results

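The interferon regulatory factor genes of the mouse were followed in 3T3-L1 adipocytes in which hairpins partly lowered Ebf1 mRNA. They were taken as the probe sets whose only gene symbol in the platform's probe table is Irf1, Irf2, Irf3, Irf4, Irf5, Irf7, Irf8 or Irf9, which gave 8 genes and 14 probe sets of 18193 genes and 34945 probe sets that name 1 gene. 3T3-L1 cells are mouse preadipocytes of an established line, which turn into fat cells under hormone treatment in culture. The 3 groups had 3 arrays each: mature cells transduced with lentivirus for hairpin 2 against Ebf1, for hairpin 1 against Ebf1, or for a scrambled hairpin. All groups went through 3 to 4 serial infections and at least 8 days in 5 µg/ml puromycin, per the labels' protocols, so the scrambled cells carry a lentivirus and a hairpin too, and untransduced cells were not analysed here. Nothing in the labels says that the numbered repeats of a group came from separate cultures, so p-values reflect only how far these arrays scatter, which could be technical.

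Interferon regulatory factors are transcription factors with a related DNA-binding domain that reads repeats of the letters GAAA. Irf3 and Irf7 are activated by phosphorylation after a cell senses foreign nucleic acid and switch on the interferon genes. Secreted interferon then acts through its receptors and STAT factors, and Irf9 is the subunit that brings the STAT complex of type I interferon to the interferon-stimulated response element. The mRNAs of Irf1, Irf7, Irf8 and Irf9 are themselves textbook targets of interferon, and these 4 genes are called the interferon-induced members below. The other 4 are Irf2, Irf3, Irf4 and Irf5, of which Irf2 and Irf5 are also known to respond to interferon in some cells, so the division is one of degree.

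The windows of 250 bases before the annotated start of 5 members are shown, because these members either fell the most or carry a match to a motif of interferon signalling. The sequences are those of RefSeq on build GRCm38.p6, 5′ to 3′ on the strand of the gene, and capitals mark matches on either strand to GAAANNGAAA, the core of the interferon-stimulated response element, or to TTCNNNGAA, the core of the gamma-activated site that STAT factors bind. Irf1, Irf8 and Irf9 have 2 annotated windows each, of which the one at the lower coordinate is shown. The Irf7 window takes in the 5′ end of the annotated gene (chr7:141263183-141266499), and the Irf5 window, not shown, lies within its gene.
Irf1, chr11:53769764-53770013, plus strand: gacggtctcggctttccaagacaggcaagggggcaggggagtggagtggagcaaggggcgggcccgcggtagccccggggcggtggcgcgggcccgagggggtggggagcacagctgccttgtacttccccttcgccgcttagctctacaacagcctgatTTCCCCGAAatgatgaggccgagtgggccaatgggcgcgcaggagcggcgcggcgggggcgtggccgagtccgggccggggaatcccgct
Irf8, chr8:120736108-120736357, plus strand: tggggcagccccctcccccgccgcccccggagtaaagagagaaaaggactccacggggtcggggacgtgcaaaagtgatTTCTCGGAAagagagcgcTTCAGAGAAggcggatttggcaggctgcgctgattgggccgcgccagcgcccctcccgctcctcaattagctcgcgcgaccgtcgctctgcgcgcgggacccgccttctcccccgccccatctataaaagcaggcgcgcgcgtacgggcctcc
Irf2, chr8:46739495-46739744, plus strand: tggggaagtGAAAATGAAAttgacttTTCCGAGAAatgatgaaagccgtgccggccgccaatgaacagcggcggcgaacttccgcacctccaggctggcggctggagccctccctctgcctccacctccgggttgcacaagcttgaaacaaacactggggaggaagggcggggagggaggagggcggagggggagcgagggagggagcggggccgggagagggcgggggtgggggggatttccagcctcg
Irf7, chr7:141266425-141266674, minus strand: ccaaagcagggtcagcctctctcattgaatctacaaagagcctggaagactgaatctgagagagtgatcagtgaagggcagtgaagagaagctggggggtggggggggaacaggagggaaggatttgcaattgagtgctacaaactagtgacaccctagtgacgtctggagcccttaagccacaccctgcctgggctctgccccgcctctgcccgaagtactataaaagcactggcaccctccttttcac
Irf9, chr14:55603735-55603984, plus strand: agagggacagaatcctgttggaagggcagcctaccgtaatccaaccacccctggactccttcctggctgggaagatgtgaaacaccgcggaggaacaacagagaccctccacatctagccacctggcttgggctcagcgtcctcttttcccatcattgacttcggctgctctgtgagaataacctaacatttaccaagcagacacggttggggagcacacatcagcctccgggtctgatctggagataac

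All 8 members had at least 1 such window, and the 8 members had 11 windows in all. Irf1 held the gamma-activated site TTCCCCGAA from 90 to 82 bases before the start, and Irf8 held TTCTCGGAA and TTCAGAGAA, from 171 to 163 and from 153 to 145 bases before it. Irf2, counted among the other members, held both a match to the response element, GAAAATGAAA, and a gamma-activated site, TTCCGAGAA. No match stood in the other 8 windows, which include those of Irf7, Irf9 and Irf3. Of all 32851 promoter windows of this length, 2.98% held the response element, 7.02% the gamma-activated site and 0.779% TCCCNNGGGA, a core of early B cell factor sites, which had no match in any window of the members. These letters describe the windows alone, and factor binding was not measured.

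The arrays gave 1 log2 value per probe set, computed by the authors with RMA. The array medians lay between 6.31 and 6.38, and arrays of 1 group correlated at 0.994 to 0.998 over the genes tested. Ebf1 on its probe set of highest signal read 8.90, 8.72 and 9.20 with hairpin 2, 9.32, 9.54 and 9.45 with hairpin 1, and 10.12, 10.15 and 10.31 with the scrambled hairpin. On this probe set hairpin 2 left 41.9% of the scrambled signal and hairpin 1 left 59.3%. Adipocyte markers were present, with an array mean of 12.03 to 12.06 log2 units over 8 genes with hairpin 2, 12.06 to 12.18 with hairpin 1 and 12.07 to 12.18 with the scrambled hairpin, although the leptin gene Lep lay below the signal filter. Of the 7 tested, Pparg, the master regulator of fat cells, fell with hairpin 2 (log2 difference -0.56) and hairpin 1 (-0.25). The lipid droplet gene Cidec fell with hairpin 2 (-0.25), and 0 of the 7 rose with either. By the test described below, 34.8% of all genes changed with hairpin 2 (13.3% fell) and 33.0% with hairpin 1 (9.23% fell).

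Irf7, Irf9 and Irf1 were lower with each hairpin than with the scrambled hairpin, and lower with hairpin 2 than with hairpin 1. Irf2 and Irf5 fell by smaller amounts, which passed the test with hairpin 2. In these bulk samples fewer cells of a type and less RNA per cell cannot be told apart. Irf3 and Irf8 did not pass the test in any comparison on the probe set of highest signal. For each gene that probe set was tested with limma, with Benjamini-Hochberg adjustment across the 12735 genes whose mean signal reached 5.72 log2 units, and genes at an adjusted p under 0.05 were called changed. Of the 8 members, 7 passed this filter, and Irf4 did not. Irf8 passed narrowly, at a mean of 5.77, and read 5.71 with hairpin 2 and 5.87 with the scrambled hairpin.

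With hairpin 2, 5 of the 7 tested members fell and 0 rose, where 13.3% of all genes tested fell, 21.5% rose and 34.8% changed in either direction. With hairpin 1, 3 fell and 0 rose, against 9.23% of all genes that fell, 23.7% that rose and 33.0% that changed. After quantile normalization of the deposited values 13.4% of all genes fell with hairpin 1, and the share of higher genes among the calls was 59.0% in place of 72.0%. Between hairpin 2 and hairpin 1, 3 members were lower with hairpin 2 and 0 higher, against 17.4% of all genes that were lower, 11.6% that were higher and 29.1% that differed. After quantile normalization 16.0% of all genes were lower with hairpin 2 than with hairpin 1, and 49.0% of the calls were higher in place of 40.1%. The hairpin 2 and hairpin 1 comparisons share the scrambled arrays. The arrays of both groups did not overlap for 5 of 7 members with hairpin 2, where this held for 49.4% of all genes, for 5 of 7 with hairpin 1 (43.4% of all genes), and for 4 of 7 between the hairpins (35.6%).

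**Figure D1:**
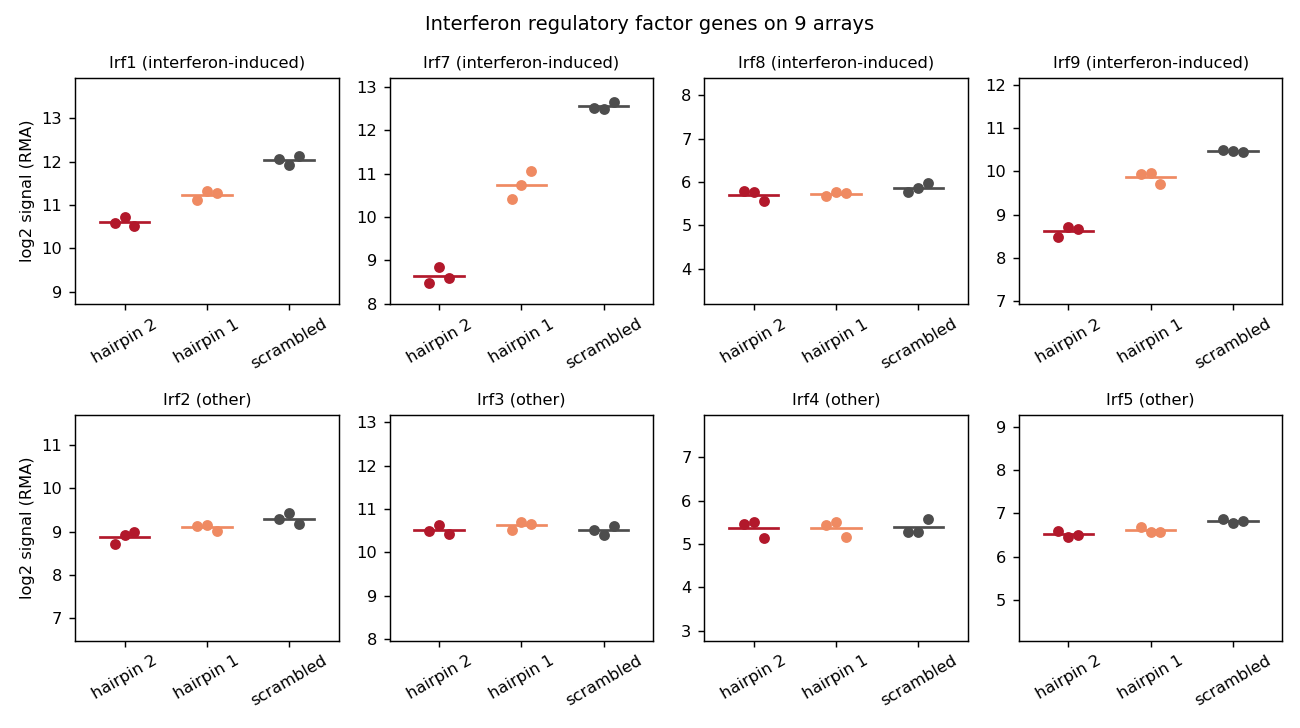
Log2 signal of the 8 members on the 9 arrays, on the probe set of highest mean signal; points are arrays, lines are group means, and every panel spans 5.2 log2 units. The hairpin 2, hairpin 1 and scrambled arrays of Irf7 are separate, at 8.47 to 8.85, 10.42 to 11.07 and 12.50 to 12.65, whereas the arrays of Irf3 and Irf4 overlap.

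Irf7, the regulator that amplifies type I interferon production, had the largest difference among the members. Its signal was 8.47, 8.85 and 8.59 with hairpin 2, 10.42, 10.73 and 11.07 with hairpin 1, and 12.53, 12.50 and 12.65 with the scrambled hairpin. The arrays of the 3 groups did not overlap, and hairpin 1 was the most variable group, with an SD of 0.32 against 0.20 with hairpin 2 and 0.08 with the scrambled hairpin. Hairpin 2 left 6.60% of the scrambled signal, a 15.1-fold fall (log2 difference -3.92, 95% interval -4.20 to -3.64, limma adjusted p = 1.592e-12). Hairpin 1 left 28.4%, a 3.52-fold fall (-1.82, interval -2.10 to -1.54, limma adjusted p = 4.949e-08). Of the 12735 genes tested, Irf7 had the 20th lowest difference with hairpin 2 and the 36th lowest with hairpin 1. Hairpin 2 read well below hairpin 1 too (log2 difference -2.10, interval -2.38 to -1.82, limma adjusted p = 1.447e-08).

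Irf9, the DNA-binding subunit of the STAT complex that type I interferon activates, was lower with both hairpins as well. Its signal was 8.49, 8.71 and 8.68 with hairpin 2, 9.95, 9.97 and 9.70 with hairpin 1, and 10.48, 10.47 and 10.44 with the scrambled hairpin. The scrambled arrays lay within a few hundredths of each other (SD 0.02, n = 3), and no hairpin array reached them. Irf9 fell 3.59-fold with hairpin 2 (log2 difference -1.84, interval -2.04 to -1.64, limma adjusted p = 2.994e-10) and 1.51-fold with hairpin 1 (-0.60, interval -0.80 to -0.40, limma adjusted p = 0.000167). The difference between hairpin 2 and hairpin 1 was -1.25 (interval -1.45 to -1.05, limma adjusted p = 1.064e-07).

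Irf1, an activator whose gene interferon gamma induces, fell with both hairpins. Its signal was 10.59, 10.72 and 10.52 with hairpin 2, 11.12, 11.33 and 11.27 with hairpin 1, and 12.06, 11.92 and 12.12 with the scrambled hairpin. Each group again held its own range. Irf1 fell 2.69-fold with hairpin 2 (log2 difference -1.43, interval -1.60 to -1.26, limma adjusted p = 9.423e-10) and 1.74-fold with hairpin 1 (-0.80, interval -0.97 to -0.63, limma adjusted p = 1.762e-06). Hairpin 2 also stood below hairpin 1 (log2 difference -0.63, interval -0.80 to -0.46, limma adjusted p = 2.216e-05).

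Irf8, a factor of macrophages, dendritic cells and B cells, had signal near the filter in every group. It read 5.78, 5.78 and 5.57 with hairpin 2, 5.68, 5.77 and 5.74 with hairpin 1, and 5.77, 5.85 and 5.99 with the scrambled hairpin, and the groups overlapped. The differences were -0.16 with hairpin 2 (interval -0.35 to 0.03, limma adjusted p = 0.19) and -0.14 with hairpin 1 (interval -0.33 to 0.05, limma adjusted p = 0.264). A second Irf8 probe set read lower still, at a mean of 5.03, and did not pass with either hairpin in the fit of all 34945 probe sets (limma adjusted p = 0.401 and 0.341). At this signal the array could not show a fall of the size seen for Irf7, since values this low lie near its floor.

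**Figure D2:**
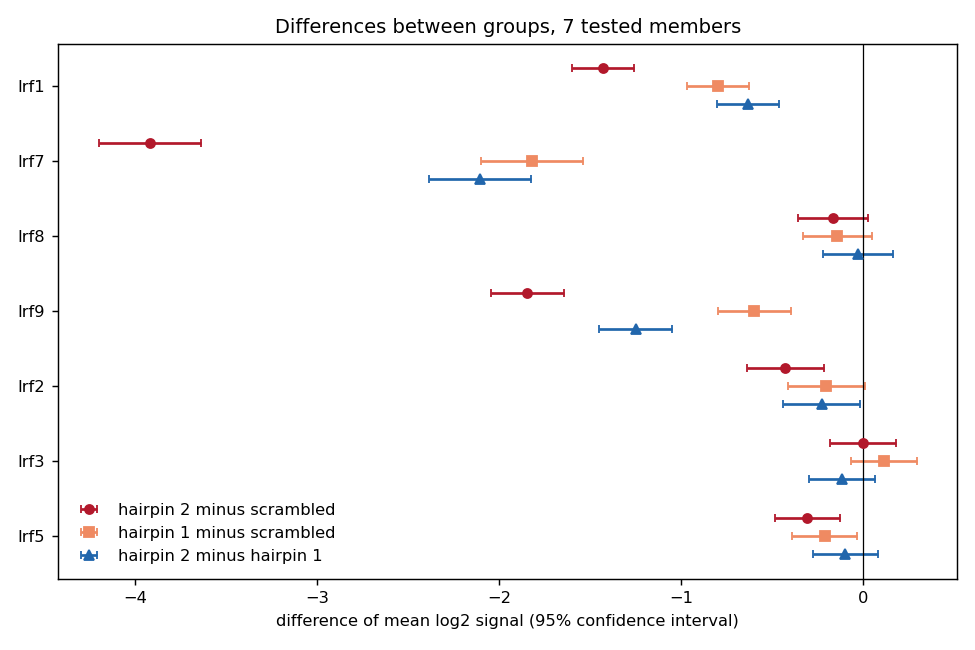
Differences of mean log2 signal for the 7 tested members, with 95% confidence intervals from limma; circles are hairpin 2 minus scrambled, squares hairpin 1 minus scrambled and triangles hairpin 2 minus hairpin 1. The intervals of Irf1, Irf7 and Irf9 lie below 0 in all 3 comparisons, and Irf7 reaches -3.92 with hairpin 2.

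Among the other members, Irf2, a repressor that competes with Irf1 for its sites, fell with hairpin 2. Its signal was 8.71, 8.93 and 8.99 with hairpin 2, 9.14, 9.15 and 9.02 with hairpin 1, and 9.28, 9.44 and 9.18 with the scrambled hairpin. The scrambled arrays stood above those of both hairpins, by a narrow margin over hairpin 1. The fall was 1.34-fold with hairpin 2 (log2 difference -0.43, interval -0.64 to -0.21, limma adjusted p = 0.00308), and with hairpin 1 the difference of -0.20 did not pass (interval -0.41 to 0.01, limma adjusted p = 0.14). With hairpin 1 the call was made after quantile normalization (-0.27, limma adjusted p = 0.0333) and with array quality weights (-0.27, limma adjusted p = 0.0042). The hairpins were not called different from each other (-0.23, interval -0.44 to -0.01, limma adjusted p = 0.105).

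Irf5, which acts downstream of Toll-like receptors in macrophages, read 6.59, 6.45 and 6.50 with hairpin 2, 6.69, 6.57 and 6.57 with hairpin 1, and 6.86, 6.77 and 6.82 with the scrambled hairpin. All hairpin arrays were below all scrambled arrays. Irf5 fell 1.23-fold with hairpin 2 (log2 difference -0.30, interval -0.48 to -0.13, limma adjusted p = 0.00927). The difference of -0.21 with hairpin 1 missed the threshold (interval -0.39 to -0.03, limma adjusted p = 0.0668), and it passed without the first repeat of hairpin 1 (-0.25, limma adjusted p = 0.0377). It also passed with equal array medians (limma adjusted p = 0.0304), after quantile normalization (0.0229), with array quality weights (0.00207) and without a variance trend (0.0406). The second Irf5 probe set, at a mean of 6.07, differed by -0.16 with hairpin 2 and -0.07 with hairpin 1 and did not pass over all probe sets (limma adjusted p = 0.461 and 0.751).

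Irf3 is made in most cells and is controlled mainly by phosphorylation of the protein, which these arrays do not measure. On its probe set of highest signal it read 10.48, 10.62 and 10.42 with hairpin 2, 10.52, 10.70 and 10.65 with hairpin 1, and 10.52, 10.40 and 10.61 with the scrambled hairpin, with overlapping groups. The difference with hairpin 2 was below 0.01 log2 units in size (interval -0.18 to 0.18, limma adjusted p = 0.991) and turned negative, to -0.02, after quantile normalization. With hairpin 1 it was 0.12 (interval -0.07 to 0.30, limma adjusted p = 0.329), and it was called with array quality weights (0.14, limma adjusted p = 0.0444). This probe set carries the platform's _x_ suffix, which marks probes that may also bind other transcripts.

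The 4 probe sets of Irf3 did not give 1 answer. The dimmest, at a mean of 7.47, read 7.51, 7.79 and 7.61 with hairpin 2, 7.46, 7.59 and 7.74 with hairpin 1, and 7.21, 7.11 and 7.22 with the scrambled hairpin. Every hairpin array exceeded every scrambled array on it, and it rose by 0.46 with hairpin 2 and 0.42 with hairpin 1 (limma adjusted p = 0.00571 and 0.013 over all 34945 probe sets). The remaining probe sets, at means of 8.48 and 7.75, differed by 0.08 and -0.02 with hairpin 2 and by 0.12 and 0.27 with hairpin 1, and none of these passed (lowest limma adjusted p = 0.121). When all 4 were averaged, Irf3 was called higher with hairpin 1 (0.23, limma adjusted p = 0.0389) and not with hairpin 2 (0.13, limma adjusted p = 0.225). With hairpin 1 all 4 differences were above 0 and 1 passed; with hairpin 2 the sign and the call depended on the probe set.

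Irf4 is best known from lymphocytes and, in mouse fat, as a factor that fasting induces and that promotes lipolysis. Its brighter probe set read 5.47, 5.50 and 5.15 with hairpin 2, 5.44, 5.50 and 5.15 with hairpin 1, and 5.28, 5.28 and 5.58 with the scrambled hairpin. All 9 arrays were below the filter and the groups overlapped. In the fit of all probe sets it differed by -0.01 with hairpin 2 and -0.02 with hairpin 1 (limma adjusted p = 0.974 and 0.952), and its other probe set, at a mean of 5.09, by 0.03 and 0.18 (0.899 and 0.234). Near the floor such values put no useful bound on a change in Irf4 mRNA.

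**Figure D3:**
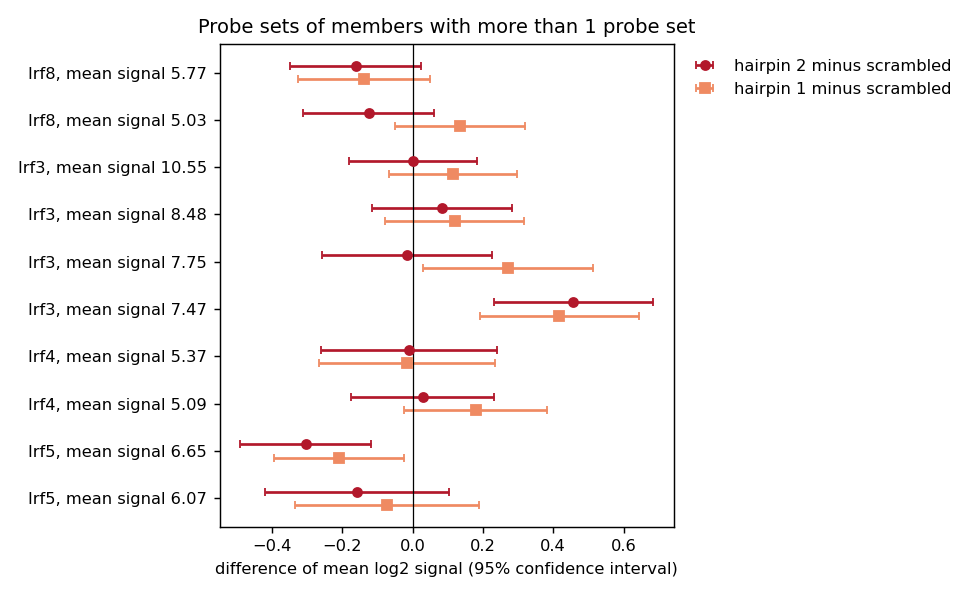
Differences of mean log2 signal with 95% confidence intervals for the 10 probe sets of Irf8, Irf3, Irf4 and Irf5, labelled by their mean over the 9 arrays; circles are hairpin 2 minus scrambled and squares hairpin 1 minus scrambled. The Irf3 probe set at 7.47 lies above 0 with both hairpins, and the brightest, at 10.55, includes 0.

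Markers of leukocytes, the cells in which Irf4, Irf5 and Irf8 are best known, were mixed. Of 15 on the array, 11 passed the filter, and Ptprc, Itgam, Adgre1 and Tyrobp, which define leukocytes or macrophages, did not. The mean over the 15 genes was 6.32 to 6.52 log2 units on hairpin 2 arrays, 6.29 to 6.42 on hairpin 1 arrays and 6.47 to 6.54 on scrambled arrays. There were 3 falls and 1 rise with hairpin 2, whereas hairpin 1 gave 3 falls and 0 rises. Of all genes tested, 34.8% changed with hairpin 2 (13.3% fell) and 33.0% with hairpin 1 (9.23% fell). Laptm5, a lysosomal membrane protein gene of leukocytes, had the highest scrambled signal of the list, 10.48, and fell with both hairpins (log2 differences -1.82 and -1.22), as did Cd74 (-0.60 and -0.41). Itgax is counted as a fall too (-0.32 and -0.29), but it read 5.94 on scrambled arrays and below the filter with both hairpins. It entered the test only through the scrambled arrays, and its calls are given as a description. The macrophage marker Cd68, below the filter on scrambled and hairpin 1 arrays, entered the test only through hairpin 2, where it read higher (1.18). This rise is also given as a description. Cd14, at 9.02 on scrambled arrays, did not pass with either hairpin (-0.15 and 0.01). Preadipocyte markers stood at an array mean of 9.67 to 9.76 with hairpin 2, 9.62 to 9.78 with hairpin 1 and 9.02 to 9.15 with the scrambled hairpin, over 5 genes, of which 4 were tested. Hairpin 2 gave 3 rises and 1 fall among these, and hairpin 1 gave 4 rises and 0 falls. Of all genes tested, 21.5% rose with hairpin 2 and 23.7% with hairpin 1. The part of either marker list in the differences of the Irf genes was not tested.

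Upstream of the factors, sensors and adaptors did not all move alike. Of 20 tested genes that lead to activation of interferon regulatory factors, 9 fell with hairpin 2 and 11 with hairpin 1, while 3 rose with each. Across all genes tested, falls made up 13.3% under hairpin 2 and 9.23% under hairpin 1. Rises made up 21.5% and 23.7% in that order. The medians of the 20 were -0.14 and -0.23, against 0.02 and 0.07 over all genes tested. The 4 with the strongest evidence were sensors of nucleic acids and fell with each hairpin. Ifih1 and Ddx58 among them are also counted below as targets of the Irf9 complex. Zbp1, a sensor of Z-form nucleic acid, fell to 6.69 ± 0.44 with hairpin 2 and 9.10 ± 0.33 with hairpin 1, against 11.21 ± 0.02 with the scrambled hairpin (SD, n = 3 each). Ifih1, a sensor of long double-stranded RNA, had log2 differences of -3.37 with hairpin 2 and -1.95 with hairpin 1. Ddx58, which encodes the RNA sensor RIG-I, differed by -1.97 and -0.70, and the endosomal RNA receptor gene Tlr3 by -1.67 and -0.94. Among the genes that rose, Sting1 (0.92 and 0.55) and Ticam1 (0.53 and 0.51) were higher with each hairpin. Sting1, Ticam1 and the kinases that phosphorylate Irf3 and Irf7 were chosen for mention after their values were seen. Tbk1 fell with hairpin 1 (-0.34, limma adjusted p = 0.00595) and did not pass with hairpin 2 (-0.13, limma adjusted p = 0.285). Ikbke rose with hairpin 2 (0.50, limma adjusted p = 0.00141) and did not pass with hairpin 1 (-0.03, limma adjusted p = 0.874). Mavs, the adaptor that links the RNA sensors to these kinases, did not pass with either (-0.03 and -0.17).

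Of 12 tested genes for interferons, their receptors and the signalling steps that join Irf9, 7 fell with hairpin 2 and 4 with hairpin 1. With either hairpin 0 rose. In comparison, 13.3% of all genes tested fell with hairpin 2 and 9.23% with hairpin 1. Medians of the 12 were -0.29 and -0.04, against 0.02 and 0.07 over all genes. The list has 15 genes on the array, and Ifna2, Ifna4 and Ifng lay below the filter. Ifnb1 was thus its only interferon gene tested. Stat2, the partner of Irf9 in the type I interferon complex, averaged 7.19 ± 0.20 with hairpin 2, 8.33 ± 0.12 with hairpin 1 and 9.12 ± 0.14 with the scrambled hairpin (SD, n = 3 each), log2 differences of -1.94 and -0.79. Ifnb1, the interferon beta gene, averaged 5.50 ± 0.14 with hairpin 2, 5.58 ± 0.17 with hairpin 1 and 6.45 ± 0.34 with the scrambled hairpin (SD, n = 3 each). Both hairpin groups read below the filter of 5.72, and Ifnb1 entered the test only through the scrambled arrays. Its differences of -0.96 and -0.87 passed the test (limma adjusted p = 5.686e-05 and 0.000206), but they are compressed and are given as a description. Ifnb1 is nevertheless included in both counts of falls above. Usp18, an inhibitor of the type I receptor, had log2 differences of -4.49 and -1.93, and Ifngr2, a subunit of the interferon gamma receptor, -0.80 and -0.52.

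Textbook targets of the factors fell almost throughout. The lists were chosen with earlier results of these data known, so their counts are a description. All 22 tested targets of the Irf9 complex fell with each hairpin, with medians of -3.26 with hairpin 2 and -1.51 with hairpin 1. Of the 22, 19 were lower with hairpin 2 than with hairpin 1. Among all genes tested, 13.3% fell with hairpin 2 and 9.23% with hairpin 1, with medians of 0.02 and 0.07. Between the hairpins, 17.4% of all genes were lower with hairpin 2. Of 21 tested targets of Irf1 or interferon gamma, 15 were lower with hairpin 2 than with hairpin 1. Against the scrambled hairpin, 19 of the 21 fell with each hairpin, with medians of -1.44 and -0.84. The 2 that did not pass were Ciita and Nos2, both weak on the scrambled arrays at 5.998 and 6.16 log2 units. The lists share no gene with each other, but 2 of the Irf9 complex targets, Ifih1 and Ddx58, are also in the sensor list. Mx1, an antiviral GTPase gene, had log2 differences of -4.94 with hairpin 2 and -3.63 with hairpin 1. Mx1 averaged 5.35 with hairpin 2, below the filter, so the first of these is compressed. In the same order they were -4.88 and -2.98 for Oas1a, an oligoadenylate synthetase gene, -4.66 and -1.60 for Ifit1, and -3.63 and -1.91 for Herc6, a ubiquitin ligase family gene. Among targets of Irf1 or interferon gamma they were -5.66 and -3.98 for the chemokine gene Cxcl10. The immunoproteasome subunit gene Psmb8 had -3.89 and -2.39. Which factor acts on the genes of either list was not tested. The guanylate-binding protein genes followed, Gbp2 with -3.40 and -1.30 and Gbp7 with -3.05 and -1.61.

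**Figure D4:**
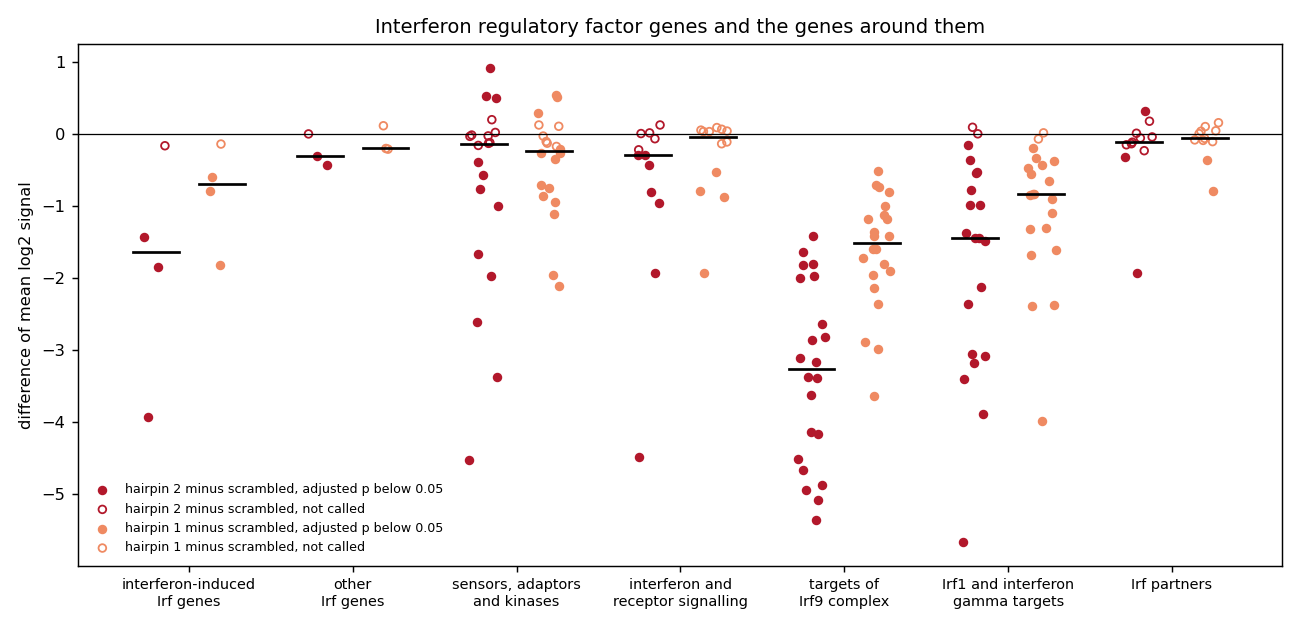
Difference of mean log2 signal of each tested gene in 7 lists, hairpin 2 minus scrambled at the left of each pair and hairpin 1 minus scrambled at the right; filled points passed an adjusted p of 0.05 and black lines are medians. All 22 targets of the Irf9 complex lie below 0, while sensors, adaptors and kinases lie on both sides.

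The genes whose pattern was nearest to each interferon-induced member were found by subtracting each gene's own scrambled mean and taking the root mean square difference over the 9 arrays, among 12003 named genes. Nearest to Irf1 were Psmb10, an immunoproteasome subunit gene (0.05 log2 units), Tap2, a peptide transporter gene of antigen presentation (0.09), and Daxx (0.10). Nearest to Irf7 were Mx2, an antiviral GTPase gene (0.16), Ifit1bl2 (0.17) and the oligoadenylate synthetase gene Oas2 (0.17). Nearest to Irf9 were Samd9l (0.14), Itih4 (0.14) and the desaturase gene Scd3 (0.15). For Irf8 the measure separated little, since 4260 genes lay within 0.2 log2 units of it, against 17 for Irf1, 8 for Irf9 and 3 for Irf7. Its nearest were Cd3e, Lins1 and Kif17 (each 0.05).

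**Figure D5:**
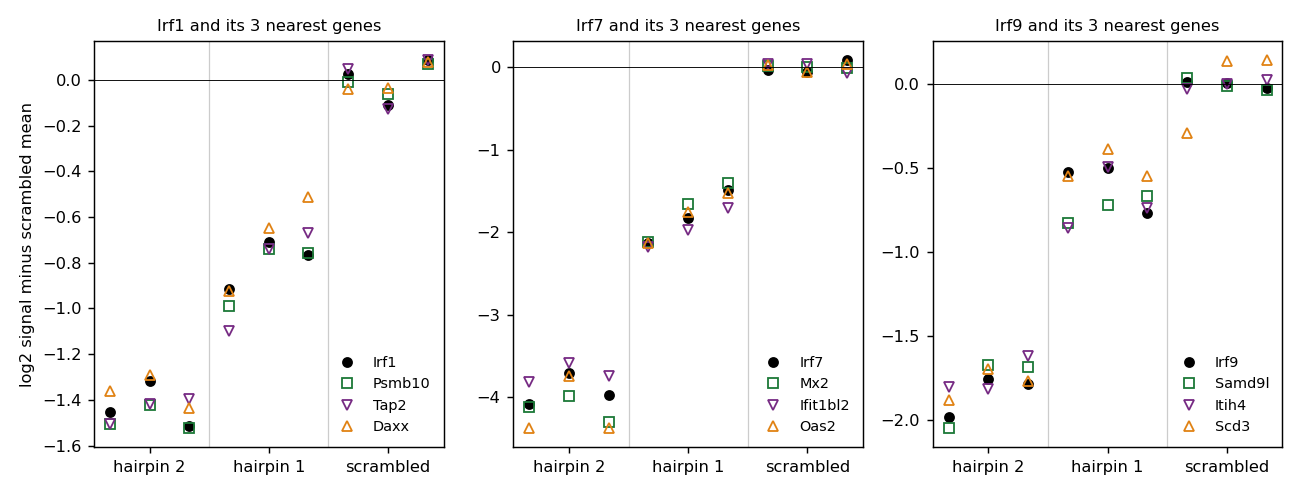
Log2 signal minus the gene's scrambled mean on each of the 9 arrays (3 per group, hairpin 2, hairpin 1 and scrambled from left to right) for Irf1, Irf7 and Irf9, filled, and their 3 nearest genes, open. The differences between a member and its neighbours are 0.05 to 0.17 log2 units as a root mean square.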

How the data were processed

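Total RNA was amplified with a NuGEN kit for very small inputs, labelled with biotin and hybridised to 9 Affymetrix mouse arrays, per the labels' protocols. The deposited log2 values were the authors' RMA output (version not given; per the submitters' processing notes). RMA corrects background, normalizes between arrays and merges the probes of a set, and folds near its floor are compressed. Of 45101 probe sets, 64 controls were left out, 34945 named 1 gene symbol, 932 several and 9160 none. Gene names came from the platform table, and all 8 members matched a RefSeq gene table. Per gene the probe set with the highest mean was used, and genes at or above the 30th percentile of gene means (5.72) were tested with limma 3.58.1 in R 4.3.3 (lmFit on 3 groups of 3 arrays, eBayes with a trend, two-sided). All probe sets were also fitted without a filter. The number of arrays limits the precision. No genome build is given for the array in the sources used here. No pair of arrays held identical values.

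The members and lists were chosen with earlier results of these data known. Named genes are the 8 members, the 4 genes of each list with the smallest p for the mean of both hairpins, and the 3 nearest genes of each interferon-induced member. Alternatives were a repeat block, other filters, normalizations and probe set summaries, no trend, array weights, pairs of groups and leaving out each array. The chain was tested on simulated data. Of differences of 0.5 log2 units added there, 73% were recovered for hairpin 2 and 71% for hairpin 1. Those of 1 and 2 log2 units were all recovered. False calls were 4.95% and 6.56% of the calls. Far fewer genes were changed there than were called in these data.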

Additional observations from a re-analysis of the deposited data

How the results depend on the processing

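The falls of Irf1, Irf7 and Irf9 kept their direction and passed the test in all 3 comparisons under all 18 alternatives, as did those of Irf2 with hairpin 2; Irf5 passed with hairpin 2 under the 17 that tested it. The range for Irf7 was -4.03 to -3.84 (hairpin 2) and -1.98 to -1.54 (hairpin 1). Of the member values, 352 kept direction and call, 9 gained a call and 8 changed sign, none of them called. The count of members changed with hairpin 1 was 5 after quantile normalization and 6 with array quality weights, against 3, while 32.6% and 58.6% of all genes changed, against 33.0%. With array weights 17.4% of all genes fell with hairpin 1, and 29.9% were lower with hairpin 2 than with hairpin 1. For the member count with hairpin 1, leaving out single arrays gave 3 to 4; with hairpin 2 this gave 5 and between the hairpins 3. Irf3 with hairpin 2 was -0.0194 after quantile normalization, -0.00805 with equal array medians, -0.00765 with array weights, and -0.0534 to 0.0518 when single arrays were left out, with negative values without repeat 2 of hairpin 2 or of the scrambled hairpin. Irf8 between the hairpins was 0.00497 after quantile normalization, 0.00521 with equal medians, and -0.0615 to 0.0484 when single arrays were left out, positive without repeat 3 of hairpin 2. The cause of these shifts was not tested. A filter at the 50th percentile left out Irf5 and Irf8.

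No clear pairing of the arrays by repeat number was seen. Deviations of same-numbered arrays correlated at -0.293 to 0.25 and those of other arrays at -0.323 to 0.31. Of 9 arrays, 4 correlated best with their own number. Groups of 3 arrays are too small for these values to settle whether the repeats were paired. With the replicate block 5 members changed with hairpin 2, 3 with hairpin 1 and 3 between the hairpins, and 4470 genes in all changed with hairpin 2 and 4281 with hairpin 1. Low signal limits what can be said of Irf4 and Irf8.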

Other observations

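Partners of interferon regulatory factors moved little beside Stat2, which is also in the signalling list. Of 11 tested partners and binding proteins, 2 fell with each hairpin, 1 rose with hairpin 2 and 0 with hairpin 1. Their medians were -0.11 and -0.06. The shares over all genes tested were 13.3% that fell and 21.5% that rose with hairpin 2. With hairpin 1 those shares were 9.23% and 23.7%. The calls among the partners are given as a description. Batf3, a leucine zipper factor that works with Irf4 and Irf8 in immune cells, fell with hairpin 2 (-0.31, limma adjusted p = 0.0197), to 5.78 ± 0.06 with hairpin 2, against 6.10 ± 0.16 with the scrambled hairpin (SD, n = 3 each). Irf2bpl, which encodes a protein related to the binding proteins of Irf2, fell with hairpin 1 (-0.37, limma adjusted p = 0.00727) and did not pass with hairpin 2 (-0.11, limma adjusted p = 0.407). Tcf3, an E protein gene, rose with hairpin 2 (0.33, limma adjusted p = 0.0347).

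Genes described as targets or partners of Irf4 in mouse fat were tested for 3 of 4, since Ucp1 lay below the filter. Pnpla2, the gene of adipose triglyceride lipase, averaged 12.23 ± 0.09 with hairpin 2, 12.63 ± 0.10 with hairpin 1 and 12.44 ± 0.15 with the scrambled hairpin (SD, n = 3 each). It fell with hairpin 2 (-0.20, limma adjusted p = 0.0478), did not pass with hairpin 1 (0.19, limma adjusted p = 0.0652), and was lower with hairpin 2 than with hairpin 1 (-0.40, limma adjusted p = 0.000997). Lipe, the hormone-sensitive lipase gene, and Ppargc1a did not pass with hairpin 2 (-0.10 and -0.08) or with hairpin 1 (-0.13 and 0.04).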
